A study of Caenorhabditis elegans with 2 samples.

Results

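The regions described here are the 378 peaks of TBX-2 chromatin immunoprecipitation on chromosome V of Caenorhabditis elegans, of 3053 peaks in all. They are every entry of the deposited optimal peak set (ce11 build) that lies on chromosome V, each taken by its summit, the position of highest signal. Of the whole set 3034 peaks were on the 6 nuclear chromosomes and 19 on the mitochondrial genome, which was left aside. On chromosome V 2 entries repeat the interval of another with a different summit, which leaves 376 distinct intervals. The samples were late embryos of hermaphrodites of strain OP159, genotype unc-119(ed3) III; wgIs159, collected 3.5 h after the eggs were bleached for synchrony. Every embryo carried the integrated transgene wgIs159, which makes TBX-2 with green fluorescent protein and FLAG at its C-terminus, and the antibody used to pull down chromatin of whole embryos recognises the GFP part. There were 2 biological replicates of this 1 group and no second condition. The peaks are thus those of a tagged transgene product, from all cells of the embryo together, and no untagged strain was analysed here. With 2 replicates of 1 group no test over samples could pass, so values are set side by side with their spread. An interval given with a share is an exact 95% Clopper-Pearson interval, which covers counting error over peaks or genes only, and neither peaks nor genes are independent replicates.

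TBX-2 belongs to the T-box transcription factors, which bind DNA through a conserved domain that prefers sites around the letters GGTGTGA, and it is known for its part in making the anterior muscles of the pharynx, the worm's feeding organ. Chromosome V is the longest of the worm's chromosomes. It carries large clusters of chemoreceptor genes, which encode seven-pass receptors used mostly by sensory neurons, and clusters of other expanded families such as nuclear hormone receptors and F-box genes. In worm autosomes the central part holds many conserved and widely expressed genes, while the arms recombine more and hold more of the fast-evolving families.

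The letters under 4 of the strongest chromosome V peaks are shown first, because these peaks set the top of the list, 3 of them at genes of small nucleolar RNAs (snoRNAs, which guide the modification of other RNAs), and because no T-box site is found in them. Each window is the summit base with 50 bp to each side, on the plus strand of WBcel235 (the ce11 sequence), read from the RefSeq genome. Capitals mark the 9 letters GTTCNANNC, in either direction, which match the B box inside tRNA genes and related small RNA genes, and otherwise the GC box GGGCGG, the E-box motif CACGTG or the TATA letters TATAAA in either direction. The 3 snoRNA windows shown all hold the B box letters, but the windows of peaks 6 and 7, also at snoRNA genes, do not.
Peak 1, intron of frm-7, at the snoRNA genes C51F7.4 and C51F7.3 (chrV:12303587-12303687): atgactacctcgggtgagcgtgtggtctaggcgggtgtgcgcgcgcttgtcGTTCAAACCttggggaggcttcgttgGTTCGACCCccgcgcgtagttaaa
Peak 2, intron of cutl-18, at the snoRNA gene T03F7.8 (chrV:11314166-11314266): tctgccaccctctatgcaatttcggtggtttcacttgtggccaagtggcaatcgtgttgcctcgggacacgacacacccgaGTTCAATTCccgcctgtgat
Peak 4, intron of Y43F8C.7, at the snoRNA gene Y43F8C.22 (chrV:19643173-19643273): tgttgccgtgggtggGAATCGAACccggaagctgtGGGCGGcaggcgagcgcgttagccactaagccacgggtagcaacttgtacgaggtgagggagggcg
Peak 5, promoter of tos-1 (chrV:9344239-9344339): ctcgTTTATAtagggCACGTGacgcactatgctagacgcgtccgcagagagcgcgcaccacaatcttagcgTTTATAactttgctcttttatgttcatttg

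The next windows are the ones that hold the 7-letter T-box site GGTGTGA, the letters most directly tied to the factor, which 7 of the 378 windows had. Distances are from the nearest annotated 5′ end of the gene, negative where the summit is upstream. Capitals mark GGTGTGA, or TCACACC where it runs on the minus strand.
aipl-1, at -163 bp (chrV:15136914-15137014): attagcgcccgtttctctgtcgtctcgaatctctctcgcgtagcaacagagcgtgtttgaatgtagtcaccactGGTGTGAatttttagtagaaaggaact
pkc-1, at -226 bp (chrV:12024336-12024436): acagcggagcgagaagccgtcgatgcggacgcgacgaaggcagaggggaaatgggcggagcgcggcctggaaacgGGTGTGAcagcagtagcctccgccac
ceh-27, at 1916 bp (chrV:11660712-11660812): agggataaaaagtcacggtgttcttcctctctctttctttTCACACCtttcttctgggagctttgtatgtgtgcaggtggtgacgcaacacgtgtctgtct
T28F12.1, inside an intron of sos-1 (chrV:4525707-4525807): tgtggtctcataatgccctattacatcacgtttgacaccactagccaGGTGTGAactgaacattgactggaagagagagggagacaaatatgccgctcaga
gly-20, at -2319 bp (chrV:11280203-11280303): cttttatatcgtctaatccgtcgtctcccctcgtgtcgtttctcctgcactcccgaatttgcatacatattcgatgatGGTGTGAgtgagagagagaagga
F26F12.3, at -1081 bp (chrV:5846750-5846850): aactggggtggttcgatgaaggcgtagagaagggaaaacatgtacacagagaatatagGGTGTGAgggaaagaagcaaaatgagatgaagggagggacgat
R02F11.3, at -1065 bp (chrV:4806962-4807062): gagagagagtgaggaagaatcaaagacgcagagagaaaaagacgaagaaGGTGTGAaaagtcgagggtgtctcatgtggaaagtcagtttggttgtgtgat

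Peaks at genes of pharynx regulators stand on this chromosome too, and the windows at pha-4 and ceh-22 are shown because TBX-2 is known for its role in that organ. Capitals mark a run of the GA repeat, GAGAGAG or CTCTCTC. The ceh-22 window lies in coding sequence and held none of the 9 motifs searched.
pha-4, at -300 bp (chrV:20752702-20752802): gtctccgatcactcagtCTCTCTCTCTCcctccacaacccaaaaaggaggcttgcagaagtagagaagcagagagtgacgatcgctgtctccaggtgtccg
ceh-22, at 72 bp (chrV:10672656-10672756): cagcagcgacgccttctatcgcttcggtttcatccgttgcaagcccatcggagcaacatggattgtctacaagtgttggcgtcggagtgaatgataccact

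Chromosome V was the emptiest of the nuclear chromosomes. It held 12.5% of the nuclear peaks (interval 11.3 to 13.7), on 20.9% of the nuclear sequence and with 25% of the protein-coding genes. The density was 18.1 peaks per Mb on chromosome V, against 33.5 on the other 5 chromosomes together, which ran from 25.9 on IV through 30.4 on II, 35.1 on X and 38.2 on III to 39.2 on I. Per 100 protein-coding genes there were 7.57 peaks on chromosome V, against 17.7 on the other chromosomes. The top lists of the replicates, the 3053 strongest peaks of each, put 402 peaks of replicate 1 and 384 of replicate 2 on chromosome V. That is 8.05 and 7.69 peaks per 100 genes on V, against 17.6 and 17.7 elsewhere, a gap larger than the difference between the replicates.

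The peaks that were there were as strong as those elsewhere. The signal, a value per peak from the authors' peak list, had a median of 124.0 on chromosome V (quartiles 97.98 and 179.8) and of 125.9 on the other chromosomes (97.35 and 179.7). The highest was 631.5 on V and 2535.7 elsewhere. Of the 100 strongest optimal peaks 15 were on chromosome V, and 61 of the 500 strongest. Both replicates had 294 of the 378 peaks in their top lists (77.8%, against 75.98% of the other nuclear peaks), 79 were in 1 of these lists and 5 in neither. Across the 377 peaks found in both relaxed lists the replicate signals had a Spearman rho of 0.776, given as a description. The threshold of the optimal set fell between the chromosome V peaks nearest to lgc-44 (signal 82.2), K02E2.11 (81.8) and kvs-3 (81.7) inside it, and those nearest to sti-1 (81.5), cmd-1 (81.4) and rme-1 (80.99) outside it.

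The top of the chromosome V list mixed snoRNA genes with promoters of protein-coding genes. A small RNA gene lay within 250 bp of 6 of the 20 strongest summits, a snoRNA gene in 5 cases and a tRNA gene in 1. Peak 1 had a signal of 631.5 in the pooled list, 392.2 in replicate 1 and 237.7 in replicate 2 (each list has its own scale), and its summit lay in the snoRNA gene C51F7.4, inside frm-7, which encodes a FERM-domain protein. The second, in cutl-18, a cuticlin-like gene, had 571.7 in the pooled list, 338.1 in replicate 1 and 229.5 in replicate 2, with the snoRNA gene T03F7.8 42 bp away. The fourth, in Y43F8C.7, had 502.9, 318.3 and 188.0 in the same lists. The sixth, in an intron of pxn-1, a peroxidasin gene for the extracellular matrix, had 459.8, 269.7 and 189.6, and its summit lay in the snoRNA gene ZK994.7. The seventh (456.6, 283.4 and 172.8) was nearest to the chemoreceptor gene str-56, at 1397 bp, but lay 44 bp from the snoRNA gene T06C12.16. The third strongest peak had no small RNA gene near: its summit lay at -4785 bp from cmd-1, the calmodulin gene, with signals of 523.9, 292.3 and 232.4. These 6 peaks ranked between 17 and 52 in the pooled list, between 17 and 48 in replicate 1 and between 28 and 79 in replicate 2.

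Promoter peaks made up most of the remaining top 20. That of tos-1, a gene used to follow alternative splicing, had its summit at -86 bp and a signal of 494.5 in the pooled list, 297.8 in replicate 1 and 197.4 in replicate 2. Its window above holds CACGTG and the letters TATAAA on the other strand at 2 places. Next came pak-2, a p21-activated kinase (448.6), zipt-9, a zinc transporter (448.1), and Y50D4C.5 (442.3). The peak between fib-1, the nucleolar methyltransferase fibrillarin that works with snoRNAs, and mut-15, a gene of the small RNA pathway, had 406.4. The peak between gcy-33, a soluble guanylate cyclase of sensory neurons, and cpr-9, a cysteine protease, had 391.4 and lay 17 bp from a tRNA gene. Peaks at Y32B12B.4 (397.1), T07F10.3 (365.5) and F25H9.7 (332.4) were at genes with a clone name only. Chaperone promoters were among them. The peak of C47E8.4 (383.4) lay inside the annotated span of hsp-90, 381 bp upstream of one of its 5′ ends. That of T10B5.4 (352.8) was 298 bp upstream of cct-7, a subunit of the cytosolic chaperonin. The one at C01G10.7 (341.0) also lay within 1 kb of ahsa-1, the activator of HSP90. The last 2 were at drap-1, a subunit of a transcriptional repressor (322.7), and mrck-1, a CDC42-binding kinase (319.6).

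Small RNA genes took about the same share of peaks on chromosome V as elsewhere, 8.20% (interval 5.64 to 11.4) and 9.94% (8.83 to 11.1), but with more snoRNA and fewer tRNA genes among them. Of 55 snoRNA genes on V 16 had one (29.1%), against 63 of 291 on the other chromosomes (21.6%). Of 78 tRNA genes on V 13 had one (16.7%), against 172 of 534 elsewhere (32.2%). As shares of peaks, snoRNA genes were near 3.97% on V (interval 2.24 to 6.46) and 2.45% elsewhere (1.89 to 3.11), and tRNA genes near 3.17% on V (1.65 to 5.48) and 6.21% elsewhere (5.32 to 7.20), with intervals that meet in both cases. None of the 15 annotated ribosomal RNA genes on V had a summit. Set beside the 5 of V near a snoRNA gene, the 20 strongest peaks of I held 3, those of II 4, those of IV 2 and those of III and X 0. The median signal was 167.6 for the 31 chromosome V peaks with a small RNA gene and 123.4 for the rest. The B box letters were in 18 of the 378 windows (4.76%, interval 2.85 to 7.42), in 5.87% of windows on the other chromosomes and in 3.69% of all 207170 windows of that length on chromosome V, so they were not set apart at summits as a whole. Of the 15 windows with a snoRNA gene, only those ranked 1, 2, 4, 22 and 55 on V held them. The letters were in 6 of the 12 windows with a tRNA gene. An example is the peak in inft-2, a formin gene, with a signal of 216.6 in the pooled list, 116.2 in replicate 1 and 100 in replicate 2, shown here with the B box letters in capitals because its summit lies in the tRNA gene itself.
inft-2 (chrV:13003490-13003590): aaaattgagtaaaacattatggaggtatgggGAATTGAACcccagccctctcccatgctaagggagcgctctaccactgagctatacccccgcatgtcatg

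Along the chromosome the peaks gathered in the middle and at the right tip. With arms taken as the outermost 25% of the length at each end and the centre as the 50% between, the left arm held 62 peaks and the right arm 53, together 10.99 per Mb, while the centre held 263, or 25.1 per Mb. The replicates gave 12.3 and 11.3 per Mb in the arms, against 26.1 and 25.4 in the centre. On the other 4 autosomes together the arms had 27.7 and the centre 38.4 peaks per Mb, so the centre of chromosome V was below even the pooled arms of the others. Chromosome V was not alone in having a thin arm: the left arm of II had 14.9 peaks per Mb and the right arm of IV 18.98. In full bins of 1 Mb chromosome V had between 4 and 38 peaks, with a median of 16.5, and 6 of its 20 bins held under 10. The medians on the other chromosomes were 27 to 34, and of all their full bins 1, on IV, held under 10.

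**Figure D1:**
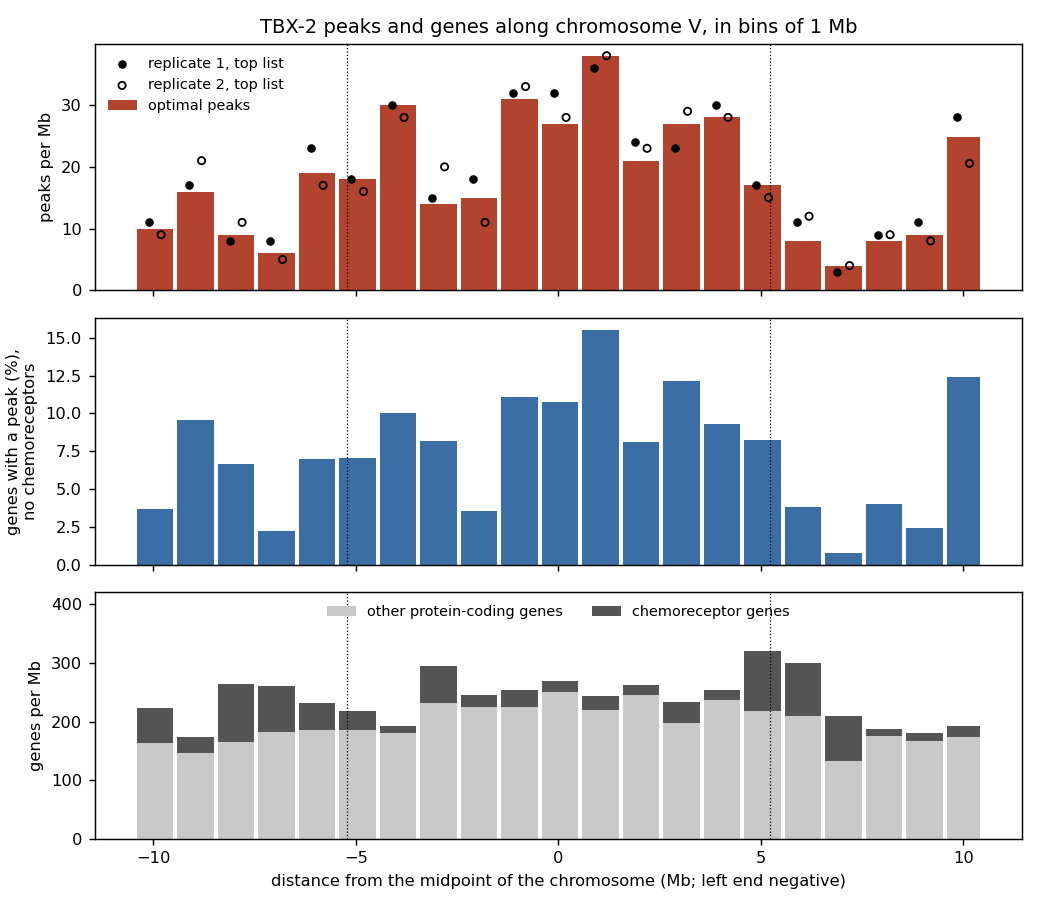
TBX-2 peaks along chromosome V in bins of 1 Mb, plotted by distance from its midpoint in Mb: peaks per Mb (top; bars, optimal peaks; filled and open points, the top lists of replicates 1 and 2), percent of protein-coding genes outside the chemoreceptor families with a peak within 1 kb (middle), and genes per Mb (bottom). Dotted lines mark the arm borders; bins range from 4 to 38 peaks, the short last bin at the right end stands above the 4 before it, and the chemoreceptor genes are unevenly spread.

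The right tip broke the pattern of the arms. The last 0.924 Mb held 23 peaks (26 in the top list of replicate 1 and 19 in that of replicate 2), with 20 of 161 genes outside the chemoreceptors bound (12.4%). The bin just inside it held 9 peaks. On the other chromosomes only full bins of 1 Mb were counted, which leave out the end itself, so their tips cannot be set beside that of V. From the next-to-last to the last full bin of 1 Mb the count went from 23 to 42 on II, from 8 to 28 on IV and from 8 to 9 on V. It changed less on I (33 to 34), III (30 to 32) and X (29 to 34). Genes at the tip of V include pha-4, whose FoxA protein sets pharyngeal identity, hif-1, the hypoxia-inducible factor, unc-51, an autophagy kinase needed in axons, num-1, the numb homologue, and unc-80, a subunit of a sodium leak channel complex. The strongest peak there was at -1996 bp from hif-1 (signal 202.1 in the pooled list, 98.5 in replicate 1 and 107.0 in replicate 2), and a weaker one lay at -155 bp (82.6, 58.7 and 34.03). The pha-4 peak at -300 bp had 86.5, 52.7 and 38.3, and a further peak 5036 bp downstream of a pha-4 start had 88.5, 52.3 and 33.6. These genes were named after their values were seen, apart from pha-4.

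Long stretches of the arms had no peak at all. The median distance between neighbouring summits was 27.3 kb on chromosome V, against 15.2 to 21.02 kb on the others. Chromosome V had 19 stretches over 200 kb, which covered 30.6% of its length, while such stretches covered between 1.48% (III) and 13.8% (II) of the others. The longest, chrV:16965849-17858046, ran 892.2 kb from the peak nearest to efl-1, an E2F factor, to the one nearest to tcc-1, and it held 198 protein-coding genes, of which 81 were chemoreceptors and 16 F-box genes. The top list of replicate 1 had 2 peaks inside it and that of replicate 2 had 0. The next, chrV:2694599-3218823 (524.2 kb), lay between Y45G12B.2 and apx-1, a Notch ligand, with 84 chemoreceptors among 146 genes, and held 2 and 4 peaks of the top lists. The third, chrV:18079417-18581962 (502.5 kb), between nova-1, an RNA-binding protein gene, and txt-14, was different in content: of 107 genes 10 were chemoreceptors and 71 had a clone name only. It held 0 and 2 peaks of the top lists. Long empty stretches were thus found both with and without dense clusters of genes with a chemoreceptor symbol. Chemoreceptors were called by symbol alone, so any among these 71 genes with a clone name only would not be counted.

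The deficit on chromosome V remained when chemoreceptor genes were left out. A protein-coding gene is called bound here when an optimal summit lies within 1 kb of any of its annotated 5′ ends, which held for 11.5% of the 19973 nuclear genes. On chromosome V 321 of 4994 genes were bound (6.43%, interval 5.76 to 7.14), against 1968 of 14979 elsewhere (13.1%, 12.6 to 13.7). Chemoreceptor genes, 1310 by their symbols, made up 17.8% of the genes on V and 2.80% elsewhere, and 5 of 890 on V (0.562%) and 6 of 420 elsewhere (1.43%) were bound. Without them 316 of 4104 genes were bound on V (7.70%, interval 6.90 to 8.56) and 1962 of 14559 elsewhere (13.5%, 12.9 to 14.04). The replicates alone gave 7.85% ± 0.241 on V and 13.2% ± 0.199 elsewhere (SD, n = 2 each). Leaving out all 9 listed expanded families, 305 of 3637 genes were bound on V (8.39%, 7.51 to 9.33) and 1926 of 13759 elsewhere (13.4 to 14.6). The ratio of V to the others moved to 0.571 without chemoreceptors and to 0.599 without all 9 families, against 0.489 with every gene.

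**Figure D2:**
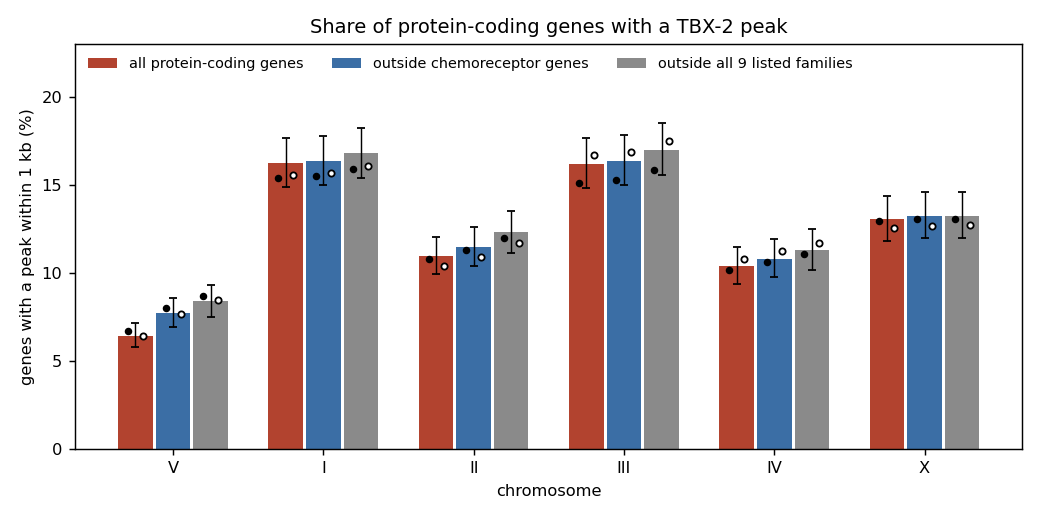
Percent of protein-coding genes with a TBX-2 summit within 1 kb of a 5′ end, for chromosome V and each other nuclear chromosome, over all genes, outside chemoreceptors and outside the 9 listed families. Bars are the optimal set with exact 95% intervals, filled and open points the top lists of replicates 1 and 2; chromosome V, at 6.43%, 7.70% and 8.39%, is below every other chromosome in each class.

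Each other chromosome stood above V outside the chemoreceptors, with 10.8% bound on IV (interval 9.74 to 11.9), 11.4% on II (10.4 to 12.6), 13.2% on X, 16.4% on I and 16.4% on III. The intervals of V and IV, its neighbour in this order, did not meet, and the replicates gave 8.02% and 7.68% on V against 10.6% and 11.2% on IV. The neighbours IV and II did not differ beyond their intervals, nor did I and III.

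The difference remained when genes were matched by class and by arm or centre. When the bound share of each gene class in arms and centre on the other chromosomes was applied to the 4104 genes of V outside the chemoreceptors, 511.0 would be bound, and 316 were, a ratio of 0.618 (0.663 with replicate 1 and 0.625 with replicate 2). The classes were each listed family, genes with a symbol of another kind and genes with a clone name only. With every gene included the numbers were 522.7 and 321, a ratio of 0.614. The distance to the next gene upstream was alike, with a median of 922.0 bp on V and 922.0 bp elsewhere outside the chemoreceptors, and adding it to the classes gave a ratio of 0.624. That step was chosen with the data already seen.

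The arms of V had lower values than its centre in each of the larger gene classes. Outside the chemoreceptors 91 of 1795 genes were bound in the arms (5.07%, interval 4.10 to 6.19) and 225 of 2309 in the centre (9.74%, 8.57 to 11.03). The replicates gave 5.85% and 4.79% in the arms and 9.70% and 9.92% in the centre. Genes with a symbol outside all listed families were bound in 45 of 512 cases in the arms of V (8.79%, 6.48 to 11.6) and 146 of 991 in its centre (14.7%, 12.6 to 17.1). On the other 4 autosomes the same class was bound in 19.3% of cases in the arms (17.7 to 21.1) and 20.3% in the centre (18.96 to 21.7), alike within their intervals. Genes with a clone name only were bound in 4.05% of cases in the arms (2.91 to 5.47) and 6.46% in the centre of V (5.10 to 8.04), with intervals that overlap, against 8.23% and 8.51% on the other autosomes. Chemoreceptors were 323 of the 1208 genes in the left arm, 315 of 2624 in the centre and 252 of 1162 in the right arm of V. Outside the chemoreceptors 5.76% were bound in the left arm of V (4.32 to 7.51) and 4.40% in its right arm (3.16 to 5.94), while the left arm of II, at 4.86% (3.55 to 6.47), was as low. A low share in an arm was therefore not limited to chromosome V.

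**Figure D3:**
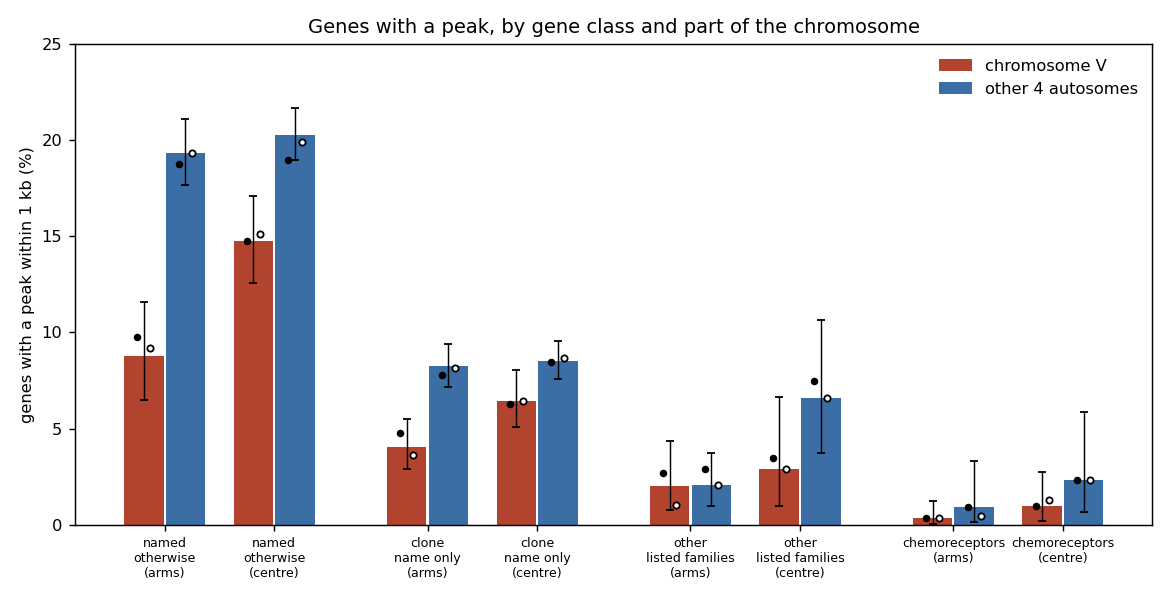
Percent of genes with a TBX-2 summit within 1 kb of a 5′ end, by gene class and by arms or centre, on chromosome V and on the other 4 autosomes. Bars are the optimal set with exact 95% intervals and points the top lists of replicates 1 (filled) and 2 (open); genes with a symbol outside the listed families are at 8.79% and 14.7% in the arms and centre of V, and at 19.3% and 20.3% on the other autosomes.

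Genes far from any chemoreceptor gene were also bound less often on chromosome V. This grouping, by the number of chemoreceptor genes within 50 kb, was likewise chosen later. Of the symbol-bearing genes outside the families with 0 such neighbours, 52 of 457 were bound on V (11.4%, interval 8.62 to 14.7) and 1119 of 5502 elsewhere (20.3%, 19.3 to 21.4). The replicates each gave 12.04% on V, and 19.4% and 19.7% elsewhere. With 1 to 5 such neighbours, 15.3% of 776 genes were bound on V (12.9 to 18.1) and 18.2% of 1193 elsewhere (16.04 to 20.5), with intervals that overlap. With over 5, 20 of 270 were bound on V (7.41%, 4.58 to 11.2) and 10 of 121 elsewhere (8.26%, 4.03 to 14.7), alike within their intervals. Genes inside chemoreceptor clusters thus had low shares on V as a whole and off it, and the gap between V and the rest was widest in value where no chemoreceptor gene was near. Within V these symbol-bearing genes were bound in 11.5%, 10.5% and 3.90% of cases in the arms with 0, 1 to 5 and over 5 such neighbours, and in 11.3%, 17.3% and 12.1% in the centre. The values were thus lower with more neighbours in the arms but not in the centre, and for V as a whole the intervals with 0 and with 1 to 5 neighbours overlap. Across the 20 full bins of V the count of peaks had a Spearman rho of -0.437 with chemoreceptor genes and 0.565 with other genes per bin, given as a description of bins that lie side by side.

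The 5 bound chemoreceptor genes of V were all called within 1 kb in both replicates as well, but not all were the nearest gene. The strongest, srh-89, had a signal of 204.3, and its summit was nearer to F25E5.1 (-118 bp) than to srh-89 (-970 bp). The peaks of srh-2 (155.8, at -84 bp) and srh-16 (154.9, at -41 bp) had these receptors as their nearest genes. That of str-12 (127.6) lay at -330 bp from it and at -176 bp from the F-box gene fbxa-153. That of srh-269 (117.0, at -250 bp) had its summit inside a tRNA gene. A chemoreceptor was the nearest gene for 6 of the 378 peaks, and for 3 of them within 1 kb.

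Most other expanded families had few or no bound genes on V, where 6.43% of all genes and 7.70% of those outside the chemoreceptors were bound. C-type lectin genes had 0 of 86 bound (a count of 0 allows up to 4.20% by the exact interval), cytochrome P450 genes 0 of 41 (up to 8.60%), glucuronosyltransferases 0 of 42 (up to 8.41%), collagens 0 of 31 (up to 11.2%) and glutathione S-transferases 0 of 9 (up to 33.6%). Of these lists, the limit for C-type lectins alone was below 6.43%. Elsewhere these lists had 6 of 154, 0 of 33, 1 of 25, 6 of 125 and 1 of 35 bound. Nuclear hormone receptors, ligand-regulated transcription factors, had 6 of 167 bound on V (3.59%, interval 1.33 to 7.66) and 15 of 102 elsewhere (14.7%, 8.47 to 23.1), and the interval on V includes 6.43%. The strongest on V were nhr-142 (signal 167.6), nhr-47 (151.6), nhr-58 (111.3) and nhr-256 (104.9). The nhr-142 summit was nearer to F44E7.9. F-box genes had 3 of 88 bound on V (3.41%, 0.709 to 9.64) and 6 of 239 elsewhere (2.51%, but 10 of 239 with replicate 1 alone), so they were not lower on V. The 3 were fbxa-90 (129.2, nearest gene efl-1), fbxa-153 (127.6) and fbxa-137 (84.97, nearest gene nhr-228). The MATH and BTB family differed from these, with 2 of 3 bound on V (math-33 at 246.4, nearer to erfa-3, and bath-36 at 112.5) and 1 of 87 elsewhere.

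Lists of basic cell functions had higher bound shares than the 6.43% of all V genes, though most of these lists have under 15 members on V. The intervals on V lay above 6.43% for ribosomal proteins (15.7 to 84.3), vesicle traffic (34.9 to 96.8), chaperones (8.39 to 58.1), mitochondrial ribosomal proteins (6.67 to 65.2) and the respiratory chain (6.76 to 93.2), the last pair by little. They included 6.43% for the proteasome (5.27 to 85.3), translation factors (0.840 to 90.6) and histones (4.19 to 33.7). All these lists are of genes with a symbol outside the listed families, a class bound on V in 191 of 1503 cases (12.7%). Against that share the intervals of ribosomal proteins and vesicle traffic lay above, and those of the other lists included it. Ribosomal protein genes had 4 of 8 bound on V and 53 of 70 elsewhere. Those on V were rpl-39 and rps-30, which share a peak (149.2), rpl-38 (113.1) and rpl-28 (91.6), while rps-27, rps-16, rpl-2 and rpl-11.1 were not bound. Vesicle traffic genes had 6 of 8 bound on V and 27 of 62 elsewhere, led by sec-61.G of the translocon (282.8) and the sorting genes vps-60 (184.3), vps-39 (126.9) and vps-36 (123.7). Chaperones had 4 of 14 on V and 20 of 45 elsewhere, with hsp-90, cct-7, dnj-19 (151.6) and hsp-6, the mitochondrial HSP70 (141.4). All 4 of these summits were nearer to the start of another gene, and dnj-19 shares its peak with nhr-47. Mitochondrial ribosomal proteins had 3 of 10 bound on V (mrps-35, mrpl-39 and mrpl-49) and 13 of 60 elsewhere. The proteasome had 2 of 5 on V (pas-1 and rpt-2) and 12 of 28 elsewhere (7 of 28 with replicate 1 alone), the respiratory chain 2 of 4 (atp-5 and atp-4) and 9 of 22, and translation factors 1 of 3 (eef-1G, 172.0) and 16 of 28. Histone genes had 4 of 27 on V (14.8%) and 11 of 45 elsewhere, but 7 of 27 with replicate 1 alone. They were his-37 (282.7), his-35 (175.5), and his-4 and his-3, which share a peak (142.5). The summits called for mrps-35, pas-1, atp-5 and his-35 were also nearer to a gene outside their list. The peak of mrpl-49 is the one counted for rpl-28. A bound gene on these lists is thus not always the nearest one.

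Peaks at muscle, pharynx and neuron genes ranged from rank 202 to rank 2899 of the 3053. The share over all genes, against which these counts are read, is 6.43% on V and 13.1% elsewhere. Body wall muscle genes had 6 of 12 bound on V and 10 of 28 elsewhere. They were led by unc-112, the kindlin of muscle attachments (297.8 in the pooled list, rank 202), unc-60, which encodes actin-severing cofilins (214.0), the actin gene act-2 (130.5) and unc-70, beta-spectrin (123.3). Of the pharynx list 2 of 5 were bound on V and 6 of 14 elsewhere: ceh-22, the NK-2 homeobox gene of pharyngeal muscle, with a signal of 124.1 and rank 1572, and pha-4 with 86.5 and rank 2783. Their windows are among those printed above, and neither held the T-box site. Genes used across neurons had 2 of 8 on V, unc-76 (218.5), a kinesin-associated protein for axon growth, and rgef-1 (140.9), and 10 of 26 elsewhere. The Wnt list had 1 of 3, the Frizzled gene cfz-2 (109.7), and 8 of 28 elsewhere. Among genes named for mutant phenotypes, unc genes had 7 of 17 on V and 19 of 77 elsewhere, lin genes 2 of 3 (lin-25, a Mediator subunit, and lin-46) and 22 of 44, egl genes 0 of 8 and 6 of 19, and let genes 0 of 2 and 6 of 32. For ceh homeobox genes the counts were 1 of 12, ceh-22 itself, and 7 of 51, and for hlh genes 0 of 2 and 2 of 23. The intervals on V include 6.43% for the pharynx, neuron, Wnt, egl, let, ceh and hlh lists. These counts thus do not stand apart from the background. The intervals of the body wall muscle list (21.09 to 78.9), the unc genes (18.4 to 67.1) and the 3 lin genes (9.43 to 99.2) lie above it. That of the lin genes includes the 12.7% of V genes with a symbol outside the families, and the summit called for lin-46 (at -871 bp) was nearer to another gene. The body wall muscle and unc lists share bound genes, among them unc-112, unc-60 and unc-70, so they are not separate results.

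Most, but not all, peaks of V sat close to a gene start. A 5′ end was no farther than 1 kb from 250 of the 378 summits (66.1%, with an interval of 61.1 to 70.9). Elsewhere this held for 60.7% of summits (58.8 to 62.5). Of the sequence, 47.8% of V and 39.5% of the other chromosomes lies that near. The larger share of summits on V is thus no sign of a stronger preference for starts. The replicates gave 63.9% and 64.6% on V. The median distance was 365.0 bp on V and 607.5 bp elsewhere. Promoters, the 1 kb upstream, held 233 summits (61.6%, 56.5 to 66.6, against 25.8% of the sequence of V), while elsewhere they held 54.7% of summits (52.8 to 56.7) and are 21.5% of the sequence. Introns held 13.8% on V and 17.5% elsewhere. Coding sequence, 22.5% of chromosome V, held 3 summits, 3′ UTRs held 2, 5′ UTRs 5, and 83 lay in the rest. On V 63 summits (16.7%) lay between divergent starts within 1 kb, and 14.04% did elsewhere. In number, 162 summits had 1 gene within 1 kb, 88 had more and 128 had none. Of these 128, 18 had a small RNA gene within 250 bp and 45 were in introns. The nearest gene had a symbol outside the families in 228 cases, a clone name only in 136, another listed family in 8 and a chemoreceptor in 6. In the arms 66.96% of summits were within 1 kb (57.6 to 75.4) and in the centre 65.8% (59.7 to 71.5), alike within their intervals. The share of sequence that near is not given for arms and centre apart, so a preference for starts cannot be compared between them.

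Some genes of V drew several summits. Inside the gene or in the 1 kb upstream, 3 summits each were found for W06H8.6 (strongest signal 262.5), Y45G5AM.9 (262.1), Y43F8B.2 (223.5), F57A8.1 (197.9), par-1 (188.0), the polarity kinase, and T28B11.1 (156.9). The gene par-1 spans 33.3 kb and W06H8.6 5.76 kb. For W06H8.6, Y43F8B.2 and T28B11.1, a pair of these summits lies in overlapping intervals and shares a peak in at least 1 replicate list, so they are not separate regions. In the top lists these genes had 2 or 3 summits in each replicate. Y45G5AM.9 and Y43F8B.2 lie in the arms, each at the edge of a long empty stretch.

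Below the optimal threshold the shortage of V peaks became smaller but did not end. The pooled relaxed list, which mixes peaks and background, has 25747 entries, and those on the nuclear chromosomes were split into 8 bins by rank. Chromosome V held 12.3% of the strongest bin (interval 11.2 to 13.5), between 14.5% and 16.4% of the middle ones and 16.95% of the weakest (15.7 to 18.3), still under its 20.9% of the sequence. The replicate lists gave 13.3% and 12.7% in the strongest bin and 15.8% and 17.5% in the weakest. The arms held 31.3% of the chromosome V peaks in the strongest bin and 56.2% in the weakest, where they are 50% of the length. The share within 1 kb of a 5′ end was 65.9% in the strongest bin and 45.5% in the weakest, against 47.8% of the sequence. The weak entries were thus spread over arms and centre nearly by length, and the gathering in the centre belonged to the strong peaks.

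**Figure D4:**
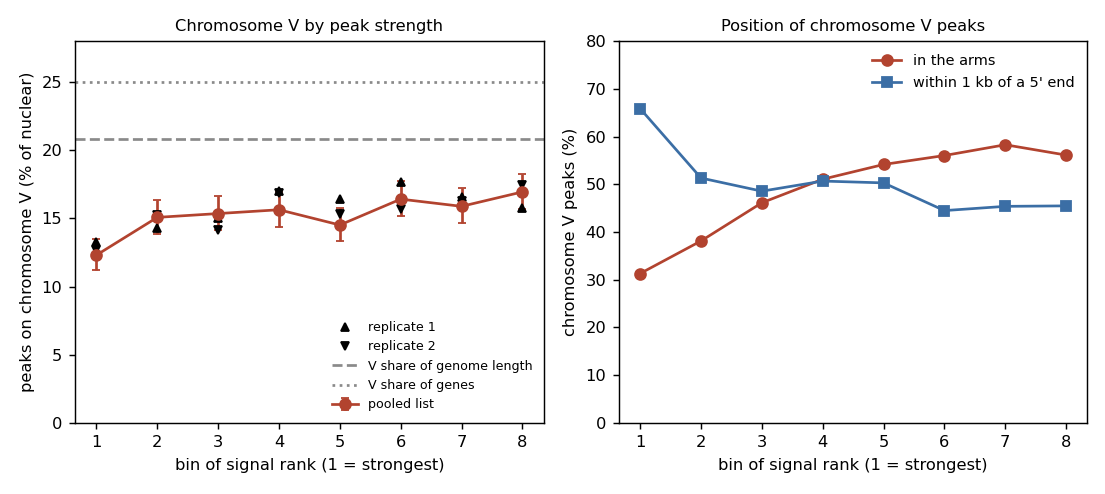
Left, percent of nuclear peaks on chromosome V in 8 bins of signal rank of the pooled list (circles with exact 95% intervals) and of each replicate (triangles), with lines for the share of genome length and of genes on chromosome V. Right, percent of chromosome V peaks in the arms and within 1 kb of a 5′ end by bin; chromosome V holds 12.3% of the strongest and 16.95% of the weakest bin, and 31.3% and 56.2% of its peaks lie in the arms.

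The T-box site was rare at the summits of V, as it was elsewhere. GGTGTGA was found, on either strand, in 7 of 378 windows (1.85%, interval 0.748 to 3.78), in 1.24% of windows on the other chromosomes (0.857 to 1.74) and in 0.703% of all windows of that length on V. None of the 756 windows centred 500 bp to each side held it. Of the 7, aipl-1 had the strongest peak (193.0 in the pooled list, 113.2 in replicate 1 and 79.5 in replicate 2). It was followed by pkc-1, a protein kinase C of neurons (124.9, 76.4 and 48.7), and ceh-27, an NK-2 homeobox gene (80.6 in replicate 1 and 35.4 in replicate 2). The other 4, nearest to T28F12.1, gly-20, F26F12.3 and R02F11.3, had pooled signals between 83.1 and 93.8. None was among the 61 chromosome V peaks in the 500 strongest of the set. In the stronger 50% of the peaks the share on V was 0.546%, which is the aipl-1 window alone. With 1 window this share cannot be told apart from the 0.703% of all V windows. The 6-letter core GTGTGA, which is part of the longer site, was in 26 windows (6.88%, 4.54 to 9.92), against 3.59% of all V windows and 8.998% of windows on other chromosomes.

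Letters of general promoters were more frequent. The GA repeat GAGAGAG was in 48 windows on V (12.7%, interval 9.51 to 16.5), against 1.14% of all V windows, and in 15.6% of windows elsewhere (14.3 to 17.1). It was in 23 windows of the arms, where the left arm held 62 peaks and the right arm 53, and in 25 of the 263 windows of the centre. The share was thus larger in value in the arms than in the centre, and no interval is given for this split. CTGCGTCT was in 34 windows on V (8.995%, 6.31 to 12.3), against 0.478% of all V windows, and in 10.4% elsewhere. GGGCGG was in 7.14% on V, against 1.43% of all V windows, and in 7.91% elsewhere. The E-box CACGTG was in 4.23% on V (2.44 to 6.78) and 2.52% elsewhere (1.96 to 3.19), against 1.62% of all V windows. The FoxA letters TGTTTAC were in 1.59% on V and 1.84% elsewhere, with 1.17% of all V windows inside the interval on V (0.585 to 3.42). With replicate 1 alone the share on V was 0.498%, and with replicate 2 alone 1.56%. AT-rich letters ran the other way: TGATAA was in 1.59% of the V windows (2.98% with replicate 1 alone and 2.08% with replicate 2) and TATAAA in 3.97%, against 9.68% and 11.4% of all V windows. The windows were richer in G and C than the chromosome, with a median of 48.5% against 35.4%, and the windows of the other chromosomes had 49.5%. Of the 378 windows 240 held none of the 9 motifs.

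**Figure D5:**
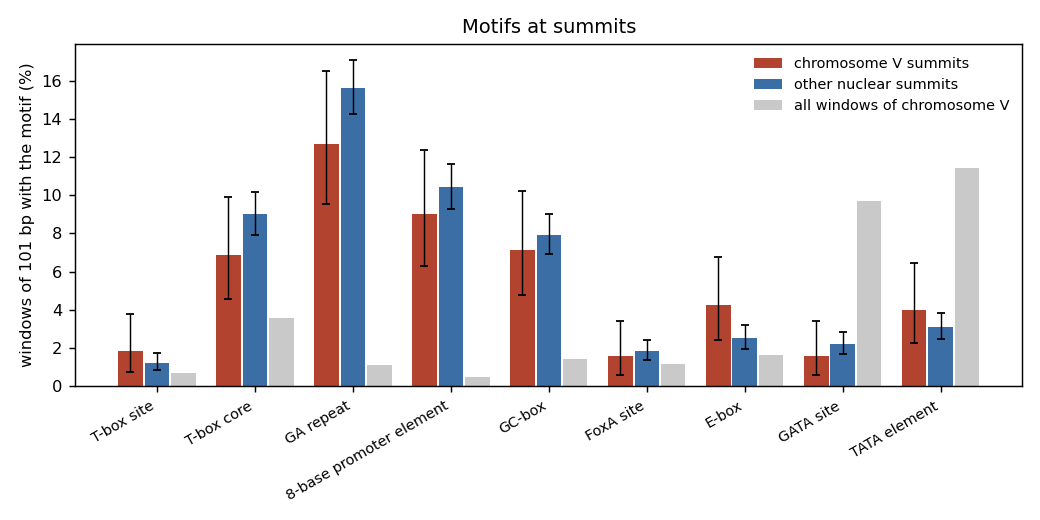
Percent of windows (50 bp to each side) that hold each of the 9 motifs on either strand: summits on chromosome V, summits on the other nuclear chromosomes (both with exact 95% intervals) and all windows of chromosome V. The GA repeat is in 12.7% of V summits and 1.14% of all V windows; the T-box site is in 1.85% and 0.703%.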

How the data were processed

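The deposited files are peak lists of chromatin immunoprecipitation on whole late embryos, 1 list for each of 2 biological replicates, 1 for both pooled, and the optimal set. Per the labels and the file names of the authors, the first 3 are relaxed lists that hold peaks with background, and the optimal set was thresholded by irreproducible discovery rate. Aligner, peak caller and threshold value were not given in the sources used here. Read depth is unknown. Each deposited list gives a signal per peak, the authors' own value, used only to rank and describe peaks within a list, and to correlate the replicates. The deposited -log10 q-value was 2.976 throughout the optimal set and took no part. The optimal set equals the 3053 strongest entries of the pooled list, so the 3053 strongest of each replicate served as its values. No coordinate was converted between builds, and no peak ended past its chromosome in WBcel235.

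Gene models were from Ensembl release 115 and sequence from RefSeq (WBcel235). Bound genes, location classes, small RNA genes within 250 bp, expected numbers from the shares on other chromosomes, and motifs on both strands in 101-bp windows were computed in Python 3.11.15 with pandas 2.3.3, numpy 2.4.6 and scipy 1.17.1. The steps were tested on simulated data. The members, gene lists and motifs were chosen with earlier results of these data known. Named genes are those nearest to the 20 strongest peaks, the 4 bound genes of each list with the highest signal, all bound chemoreceptors of V, pha-4 and ceh-22, the 5 genes with most summits, those at T-box sites and those flanking the 3 longest gaps. T28B11.1, which ties with these 5, the unbound ribosomal protein genes, inft-2, ahsa-1, frm-7, sos-1 and the genes of the right tip were named after their values were seen. The B box was also added after the data were seen. Alternatives were each replicate alone, fewer peaks, other windows, gene assignments, arm borders and comparison chromosomes, and the ce10 list.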

Additional observations from a re-analysis of the deposited data

How the results depend on the processing

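No paired analysis was possible because there was 1 group. No ratio of V over others or of arms over centre passed 1 under the alternatives run. The T-box share, 1.85% against 0.703% of all V windows, did not stay above that background among stronger peaks. There it rests on at most 1 window, so it cannot be told apart from the background. In all, 40 values moved by no more than 1 SD of the replicates (n = 2), and 32 moved by more. With 1 replicate alone the share of nuclear peaks on V was 12.7% to 13.3%, peaks per 100 genes (V over others) 0.435 to 0.458, bound genes (V over others) 0.496 to 0.527, outside chemoreceptors 0.578 to 0.616, outside all families 0.611 to 0.644, peaks per Mb in V arms over centre 0.444 to 0.473, summits within 1 kb of a 5′ end 63.9% to 64.6%, T-box windows 1.82% to 1.99%, and observed over expected bound genes 0.625 to 0.663. For bound genes (V over others) a window of 500 bp gave 0.519 for all genes, 0.605 outside chemoreceptors and 0.635 outside all families, and the nearest start alone 0.445, 0.518 and 0.551. The 500 strongest peaks gave 0.634 outside all families. Arms over centre of V in peaks per Mb was 0.346 with the stronger 50% of peaks, 0.326 with the 500 strongest and 0.599 with the middle 33% as the centre, and in bound genes outside chemoreceptors 0.405, 0.276 and 0.657, so the size of this gap depends on peak strength and on the border. Summits within 1 kb were 73.8% in the stronger 50% and 75.4% in the 500 strongest, and other windows gave 55.6% (500 bp) and 82.3% (2 kb). T-box windows were 0.546% in the stronger 50% and 0 in the 500 strongest, 1.06% within 25 bp, 2.91% within 100 bp, and 6.88% with the core. The causes were not tested, apart from windows and cores that by construction hold more or fewer sites. Observed over expected was 0.631 against the other 4 autosomes and 0.624 with upstream distance, both added after the data were seen. Read depth is unknown, so a stretch without a peak is one without a peak at this depth and threshold.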
